A study of Mus musculus with 18 samples.

Results

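The comparison described here sets the 6 libraries of rejuvenated old mesenchymal stem cells (MSCs) against the 6 libraries of young MSCs, 12 of the 18 libraries in the series. It covers the 14353 of 27179 genes in the table whose mean over all 18 libraries was at least 10 normalized counts. A normalized count is the number of reads on a gene divided by 1 size factor per library, and a gene is called here when its limma p, adjusted by the Benjamini-Hochberg method over all 14353 genes, is under 0.05. The question is what still separates old cells from young cells after co-culture.

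All cells were primary MSCs flushed from the tibias and femurs of C57BL6 mice, which the study's methods give as male, and they were used between passages 2 and 5. Young MSCs came from donors of 6 weeks and were grown without treatment. Rejuvenated old MSCs came from donors of 18 to 24 months and had shared a well with young MSCs for 7 days, on the other side of a membrane whose 0.4 µm pores let soluble factors pass but not cells. Each library was made from a culture at day 7, and the wells held 100000 cells. The other 6 libraries, old MSCs grown alone from donors of the same ages, are given only as values beside the comparison. Donor age, the cell stock and the co-culture all differ between the groups compared, so their parts in a difference cannot be told apart. How many animals or stocks stand behind the 6 libraries of a group is not given in the sources used here, and p-values then measure only the spread between these samples, which may be technical.

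MSCs are the adherent stromal cells of bone marrow. In the marrow they make bone, fat and cartilage, hold blood stem cells in place through the chemokine CXCL12 and stem cell factor, and act on vessels through secreted growth factors. Mesenchymal cells also keep a record of where in the body they arose, in the form of the HOX genes they express, and this record is known to last in culture.

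Each library held 22936251 to 29155223 reads on genes in the 12 libraries compared, and a gene is described as at the floor of a group when none of the group's libraries held over 3 reads of it. The labels were first checked against sex-specific genes. The 4 Y-linked genes Ddx3y, Kdm5d, Uty and Eif2s3y together held 0 to 5 reads in the young libraries, 5259 to 6339 in the rejuvenated old and 5013 to 5584 in the old libraries. Xist, the RNA that coats the inactive X chromosome of female cells, was low in every library, with 21.2 to 41.2 (median 38.4) normalized counts in young and 4.83 to 10.3 (median 6.63) in rejuvenated old MSCs. The young libraries thus lack the Y-linked transcripts that male donors would give, and what this says of the young stock was not tested. Rejuvenated old replicate 1 stood apart from its group. Of 45 genes with at least 100 normalized counts in every young library and at most 3 reads in every old library, it held 1.96% of the young level, against 0.0876% to 0.168% in rejuvenated old replicates 2 to 6. For genes that are low in rejuvenated old MSCs, values without this library are added where it moved the fold most.

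**Figure D1:**
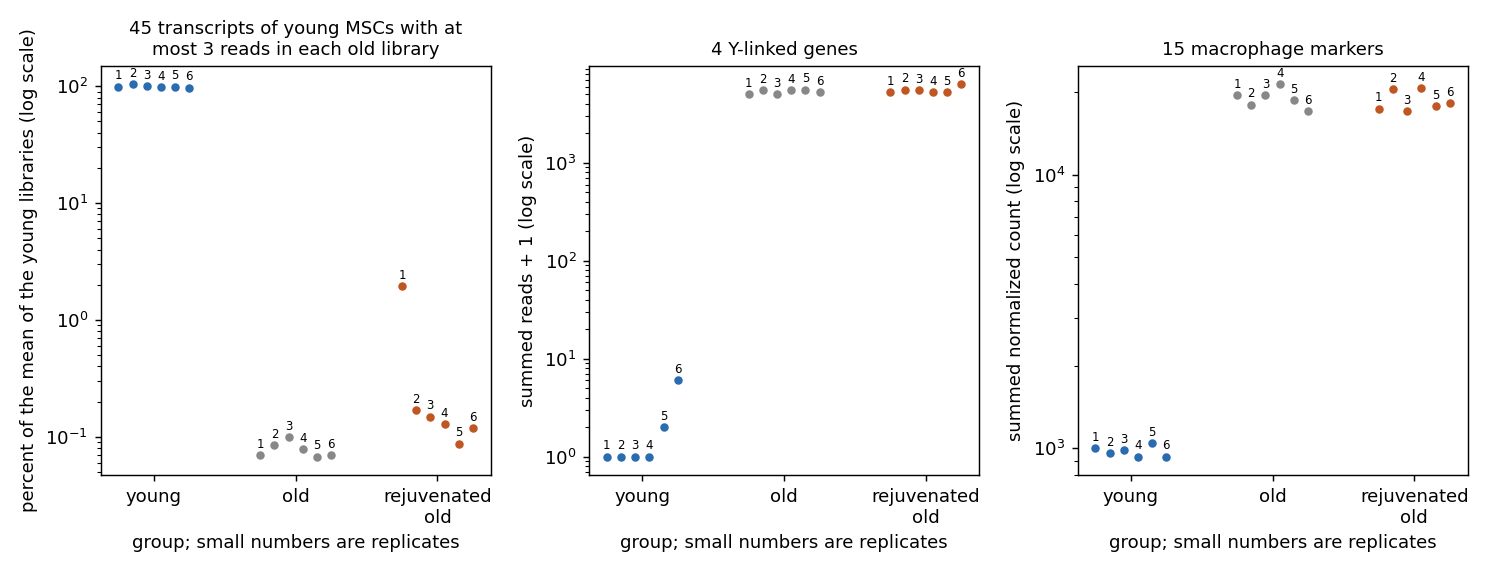
Each point is 1 library and the small numbers are replicates. The left panel gives the summed level of the 45 genes as a percent of the mean of the young libraries, where rejuvenated old replicate 1 lies at 1.96%; the middle panel gives the summed reads of 4 Y-linked genes plus 1, with at most 5 reads in any young library; the right panel gives the summed normalized count of 15 macrophage markers; all 3 vertical axes are logarithmic.

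Most genes measured still differed. Of the 14353 genes, 12288 (85.6%) were called, 6328 (44.1%) higher and 5960 (41.5%) lower in rejuvenated old MSCs, and 12352 had an unadjusted p under 0.05. Which direction held more genes depended on the scaling, since with each library scaled to the same total 5725 were higher and 6606 lower. The difference was at least 2-fold in 2565 called genes that were higher (17.9%) and in 1879 that were lower (13.1%). It was at least 4-fold (log2 of 2) in 2164 genes and at least 32-fold (log2 of 5) in 557. All 6 rejuvenated old libraries lay above all 6 young libraries in 5233 genes (36.5%) and below them in 4882 (34%). Old MSCs grown alone, set against the same young libraries, gave 6330 genes higher (44.1%) and 5967 lower (41.6%), with 4573 at least 2-fold apart. The median absolute log2 fold change from young was 0.58 for rejuvenated old and 0.60 for old MSCs. On log2(normalized count + 1), 94.0% of the squared distance among the 12 libraries lay between the groups (two-sided exact permutation test over all assignments of the 12 libraries to 2 groups of 6, p = 0.00216, the smallest they can give). Genes shown to be close were fewer. For 1794 genes (12.5%) the 95% interval of the log2 fold change lay within 0.25 of 0 on either side, and for 4793 (33.4%) within 0.5.

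**Figure D2:**
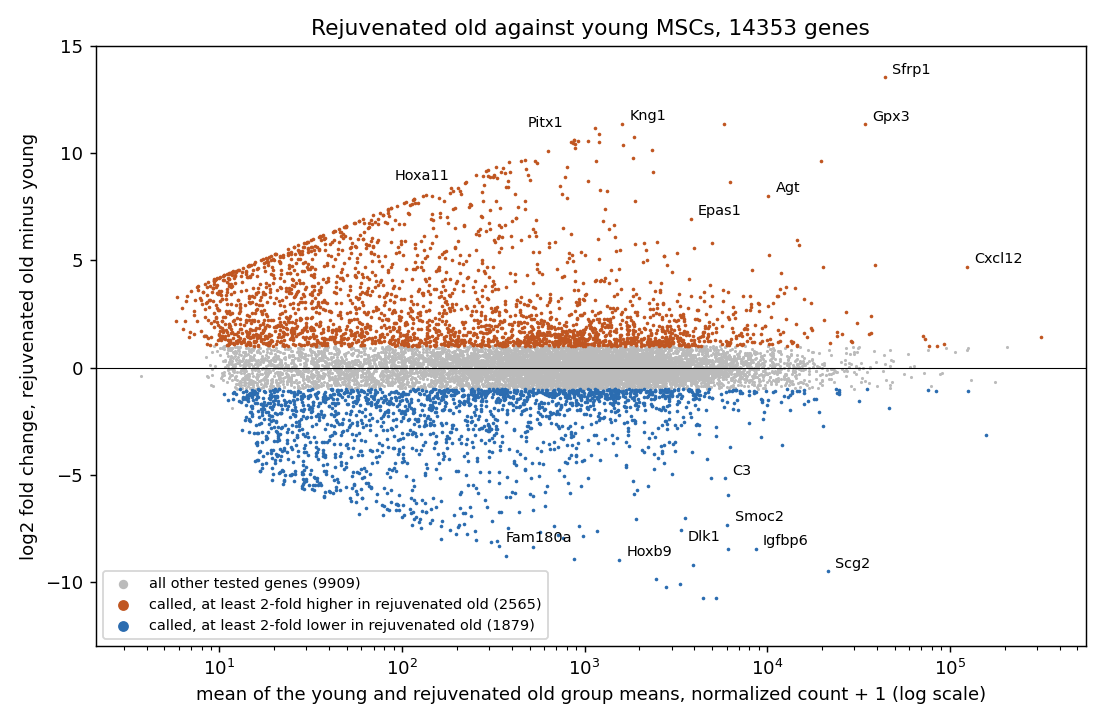
Each point is 1 of the 14353 genes, with the mean of both group means of normalized counts plus 1 on a logarithmic horizontal axis and the log2 fold change, rejuvenated old minus young, on the vertical axis. Orange points are the 2565 genes called and at least 2-fold higher, blue points the 1879 called and at least 2-fold lower, and the sloping edges of the cloud are genes at or near 0 reads in one group.

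Among genes with a full name (not predicted genes) and a mean of at least 50 normalized counts in the lower group, the largest rise was in Agt (NCBI gene 11606, chromosome 8, 124556587 to 124569706 of GRCm38.p6), which encodes angiotensinogen, the precursor of the angiotensin peptides. It had 66.7 to 93.6 (median 75.2) normalized counts in young and 16964 to 24176 (median 19708) in rejuvenated old MSCs (log2 fold change 8.0, SE 0.08, adjusted p = 3.98e-27). Every rejuvenated old library lay far above every young one, and the median in old MSCs grown alone was 13969.6. Epas1, the hypoxia-inducible factor HIF-2 alpha, had 54.8 to 72.9 (median 58.7) in young and 6535 to 8877 (median 7556) in rejuvenated old MSCs (log2 fold change 6.93, SE 0.07, adjusted p = 2.52e-27). Rspo2, a secreted protein that strengthens Wnt signals, had 387 to 509.7 (median 461) in young and 26887 to 31094 (median 28732) in rejuvenated old MSCs (log2 fold change 5.97, SE 0.05, adjusted p = 1.45e-28). Sfrp2, a secreted binder of Wnt ligands, had 476 to 646 (median 561) in young and 28106 to 31256 (median 29064) in rejuvenated old MSCs (log2 fold change 5.72, SE 0.06, adjusted p = 1.06e-27). In old MSCs grown alone the medians of these Wnt modulators were 20183 and 15792. Eng, the TGF-beta co-receptor endoglin (CD105), a surface marker of stromal and endothelial cells, was also far lower in young MSCs, at 147 to 175 (median 164), than in rejuvenated old MSCs, at 7557 to 8158 (median 7692) (log2 fold change 5.56, SE 0.04, adjusted p = 9.05e-30). The other genes of this kind were Psrc1 (5.87), Lyz2 (5.81), Ms4a4d (5.79), Pygl (5.75), Adm (5.48), Psd4 (5.46) and Fabp4 (5.45), with the log2 fold change in brackets. Lyz2 encodes the lysozyme of macrophages, Adm the vessel-relaxing peptide adrenomedullin and Fabp4 a fatty acid carrier of fat cells and macrophages. These 12 genes were picked among those whose groups do not overlap, as 36.5% of all genes tested did not in this direction.

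Among genes with a full name and a mean of at least 50 normalized counts in rejuvenated old MSCs, the largest fall was in Scg2 (NCBI gene 20254, chromosome 1, 79434366 to 79440026), which encodes a secretogranin of secretory granules. It had 39989 to 45129 (median 43342) normalized counts in young and 37.1 to 98.9 (median 63.7) in rejuvenated old MSCs (log2 fold change -9.50, SE 0.21, adjusted p = 2.18e-21), and the median in old MSCs grown alone was 20.7. Igfbp6, a secreted carrier that binds IGF2 before IGF1, had 16050.0 to 19041 (median 17194) in young and 26.6 to 319 (median 35.4) in rejuvenated old MSCs (log2 fold change -8.46, SE 0.39, adjusted p = 1.86e-15). Dlk1, a Notch-related protein of immature fat and marrow stromal cells, had 11489 to 12726 (median 12185) in young and 19.3 to 298 (median 22) in rejuvenated old MSCs (log2 fold change -8.44, SE 0.45, adjusted p = 2.86e-14). In rejuvenated old MSCs the highest value of both came from replicate 1. Without it the range was 26.6 to 40.0 for Igfbp6 and 19.3 to 25.5 for Dlk1, and the log2 fold changes were -9.01 and -9.06. Igfbp6, Dlk1, Cd34 and Eno1b reached the mean of 50 only through replicate 1, and their means over replicates 2 to 6 were 32.9, 21.8, 35.3 and 29.2. Smoc2, a calcium-binding matrix protein, had 11763 to 12308 (median 12087) in young and 49.1 to 115 (median 73.5) in rejuvenated old MSCs (log2 fold change -7.33, SE 0.13, adjusted p = 4.08e-23). The median in old MSCs grown alone was 195. C3, the central component of complement, had 10943 to 11884 (median 11489) in young and 269.8 to 359 (median 329) in rejuvenated old MSCs (log2 fold change -5.16, SE 0.07, adjusted p = 1.14e-25). The remaining genes with the largest falls above this limit were Cd34 (-7.04), Sema3a (-5.97), Il16 (-5.71), Gas7 (-5.52), Aqp1 (-5.31) and Ndrg1 (-5.15), together with Eno1b (-5.53). Eno1b is a near copy of the enolase gene Eno1, so its reads may belong to either and its value is uncertain. Cd34 is a sialomucin found on blood stem cells, vessels and some stromal cells, Sema3a a secreted guidance cue, and Aqp1 a water channel. These 12 genes too were picked among those whose groups do not overlap (34% of all genes tested in this direction).

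Some transcripts were seen on one side only. At the floor in young MSCs were 350 of the tested genes, and 76 were at the floor in rejuvenated old MSCs. The second number rose to 130 without rejuvenated old replicate 1, a count added after the data had been seen. The numbers of the 2 sides cannot be set against each other, because the filter on the mean over 18 libraries, of which 12 come from old donors, passes a gene that is absent from young MSCs more easily than one that is seen only there. The folds that follow are lower bounds, taken against 3 reads in each library of the group at the floor. Kng1, which encodes kininogen, was at least 1021-fold higher in rejuvenated old MSCs, with 2622 to 3720.5 (median 3286) normalized counts against at most 2.06 in any young library. Gria3, an AMPA-type glutamate receptor subunit, was at least 763-fold higher, with 2332 to 2558 (median 2377). Nkd2, an inhibitor of Wnt signalling, was at least 758-fold higher, with 2056 to 2833 (median 2371). Others of high level that young MSCs lacked were the amyloid precursor relative Aplp1 (at least 726-fold), the vasopressin receptor Avpr1a (587), the complement subunit C1qc (559), the raft protein Rftn1 (555) and the Y-linked Eif2s3y (665). In the other direction Fam180a had 605 to 765 (median 659.7) in young MSCs and was at least 234-fold lower in rejuvenated old MSCs. Fgf14, an intracellular member of the FGF family that binds sodium channels, had 272 to 367 (median 324) in young MSCs and was at least 112-fold lower. Frem1, a basement membrane protein, had 218 to 304 (median 243) and was at least 87.3-fold lower. The transcriptional coactivator Mamstr (at least 78.2-fold lower), the metalloreductase Steap4 (65.8), the glycosyltransferase Galnt15 (64.2), the zinc transporter Slc30a3 (57.8) and the peroxisomal oxidase Acox2 (54.2) followed.

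The HOX genes separated by cluster. HOX proteins are transcription factors encoded in 4 clusters, named A to D, in which the order of the genes follows the order of the body regions where they act. Of 39 HOX genes present, 31 were tested, and all 31 were called, 15 higher and 16 lower, where 44.1% and 41.5% of all genes tested were (median log2 fold change -0.21, against 0.03 over all genes tested). With libraries scaled to the same total 14 were higher and 16 lower, since Hoxa10 lost its call. All 8 tested genes of the B cluster on chromosome 11 were at least 2-fold lower in rejuvenated old MSCs, with a median of -7.20. All 4 tested genes of the D cluster on chromosome 2 were at least 2-fold higher. Over all genes tested, 13.1% were at least 2-fold lower and 17.9% at least 2-fold higher. In the A cluster on chromosome 6, 8 genes were higher and 2 lower, and in the C cluster on chromosome 15, 3 were higher and 6 lower. Hoxb9 had 2904 to 3168 (median 3091) normalized counts in young and 0 to 146 (median 4.3) in rejuvenated old MSCs (log2 fold change -8.97, SE 0.72, adjusted p = 7.09e-11). Its highest rejuvenated old value was that of replicate 1, and the other replicates lay at 0 to 5.66 (log2 fold change -9.89 without replicate 1). Hoxb8 had 549 to 713 (median 603) in young and 0 to 21.6 (median 0) in rejuvenated old MSCs (log2 fold change -8.13, SE 0.57, adjusted p = 4.95e-12), and 0 to 3.77 without replicate 1 (log2 fold change -8.80). The other B genes, chosen after their values were seen, were lower too, with log2 fold changes for Hoxb7 (-7.58, or -8.20 without replicate 1), Hoxb5 (-7.23), Hoxb6 (-7.18), Hoxb2 (-7.08) and Hoxb3 (-6.73), and for Hoxb4 (-2.58), the only B gene with reads in every rejuvenated old library, at 36.2 to 62.4 (median 46.0) against 255 to 303 (median 278). On the other side Hoxa11 had at most 2.23 normalized counts in any young library and 382 to 463 (median 403) in rejuvenated old MSCs, at least 131-fold higher. Hoxd9 had 0 reads in all 6 young libraries and 218 to 325 (median 264) in rejuvenated old MSCs, at least 84.8-fold higher. Hoxd8 (log2 fold change 5.59), Hoxd4 (at least 16.6-fold) and Hoxd3 (at least 6.04-fold), also chosen after their values were seen, rose too. Hoxa10 and Hoxc10, also chosen after their values were seen, are the highest members of the A and C clusters and differed little. Hoxa10 had a median of 2511 in young and 2797 in rejuvenated old MSCs (log2 fold change 0.14), and Hoxc10 had 4219.9 and 3656 (-0.21). Both belong to the group of HOX genes that patterns the proximal hind limb. In old MSCs grown alone 14 of the 31 were higher and 15 lower than in young MSCs, with a median of -0.07.

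The promoters of these 3 HOX genes, and of the genes with the largest fall and rise, are shown to set the B cluster gene beside the A and D cluster genes. Each is a window of 300 bases from 250 before to 50 after a transcript start in RefSeq, read 5′ to 3′ on the gene's strand on GRCm38.p6, and capitals mark CG dinucleotides.
Hoxb8 promoter, chr11:96281655-96281954, + strand: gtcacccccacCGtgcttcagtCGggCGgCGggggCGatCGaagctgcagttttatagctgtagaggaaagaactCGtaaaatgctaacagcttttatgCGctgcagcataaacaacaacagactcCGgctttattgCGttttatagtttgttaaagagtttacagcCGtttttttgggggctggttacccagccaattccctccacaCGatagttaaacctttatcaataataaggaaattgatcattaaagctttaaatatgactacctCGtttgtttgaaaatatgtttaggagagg
Hoxa11 promoter, chr6:52245761-52246060, - strand: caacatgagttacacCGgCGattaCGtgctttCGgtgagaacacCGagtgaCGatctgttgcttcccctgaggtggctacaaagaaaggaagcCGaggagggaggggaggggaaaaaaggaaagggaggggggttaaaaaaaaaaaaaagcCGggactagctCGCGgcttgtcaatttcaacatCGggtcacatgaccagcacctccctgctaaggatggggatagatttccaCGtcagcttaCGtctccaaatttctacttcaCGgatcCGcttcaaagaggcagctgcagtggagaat
Hoxd9 promoter, chr2:74697513-74697812, + strand: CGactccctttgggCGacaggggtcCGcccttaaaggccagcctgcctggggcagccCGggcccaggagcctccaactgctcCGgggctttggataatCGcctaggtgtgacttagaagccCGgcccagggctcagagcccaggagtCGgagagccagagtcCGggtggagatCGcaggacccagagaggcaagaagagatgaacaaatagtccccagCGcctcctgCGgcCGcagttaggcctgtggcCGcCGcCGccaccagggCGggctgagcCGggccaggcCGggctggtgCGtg
Scg2 promoter, chr1:79439977-79440276, - strand: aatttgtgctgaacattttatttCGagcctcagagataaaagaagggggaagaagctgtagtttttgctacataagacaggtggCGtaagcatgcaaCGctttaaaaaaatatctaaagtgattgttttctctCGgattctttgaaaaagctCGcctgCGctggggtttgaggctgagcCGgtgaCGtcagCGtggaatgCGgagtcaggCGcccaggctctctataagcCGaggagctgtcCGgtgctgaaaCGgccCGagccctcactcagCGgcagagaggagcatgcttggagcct
Agt promoter, chr8:124569657-124569956, - strand: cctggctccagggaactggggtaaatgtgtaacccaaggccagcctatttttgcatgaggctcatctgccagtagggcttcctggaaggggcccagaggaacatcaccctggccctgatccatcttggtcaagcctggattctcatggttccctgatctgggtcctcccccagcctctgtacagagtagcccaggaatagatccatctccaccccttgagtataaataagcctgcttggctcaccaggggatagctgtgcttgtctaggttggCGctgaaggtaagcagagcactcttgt
The Hoxb8 window lies at a transcript start inside the annotated gene, which begins at 96279401 on chromosome 11. The CG count was 13 for Hoxb8, 15 for Hoxa11, 20 for Hoxd9, 16 for Scg2 and 1 for Agt, beside a median of 7 (quartiles 3 and 20) over all 32851 windows in the reference table. Of the motifs searched on both strands, the TATA element TATAAA, found in 13.6% of all windows, lies in Hoxb8 and Agt. The CCAAT box, found in 37.4% of windows, lies in Hoxb8, and GGGCGG, the core of a GC box found in 35.7%, lies in Hoxb8 and Hoxd9. ACGTG, found in 19.6% of windows and contained in the E-box CACGTG (7.15%), lies in Hoxa11. TGACTCA (5.20% of windows) and TTTGGCGC (0.514%) lie in none of the 5. A match is only a match of letters. A window was found for 76.3% of the genes tested, less than the 80% needed, so a comparison of promoters between the genes that rose and fell would be void and was not made.

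**Figure D3:**
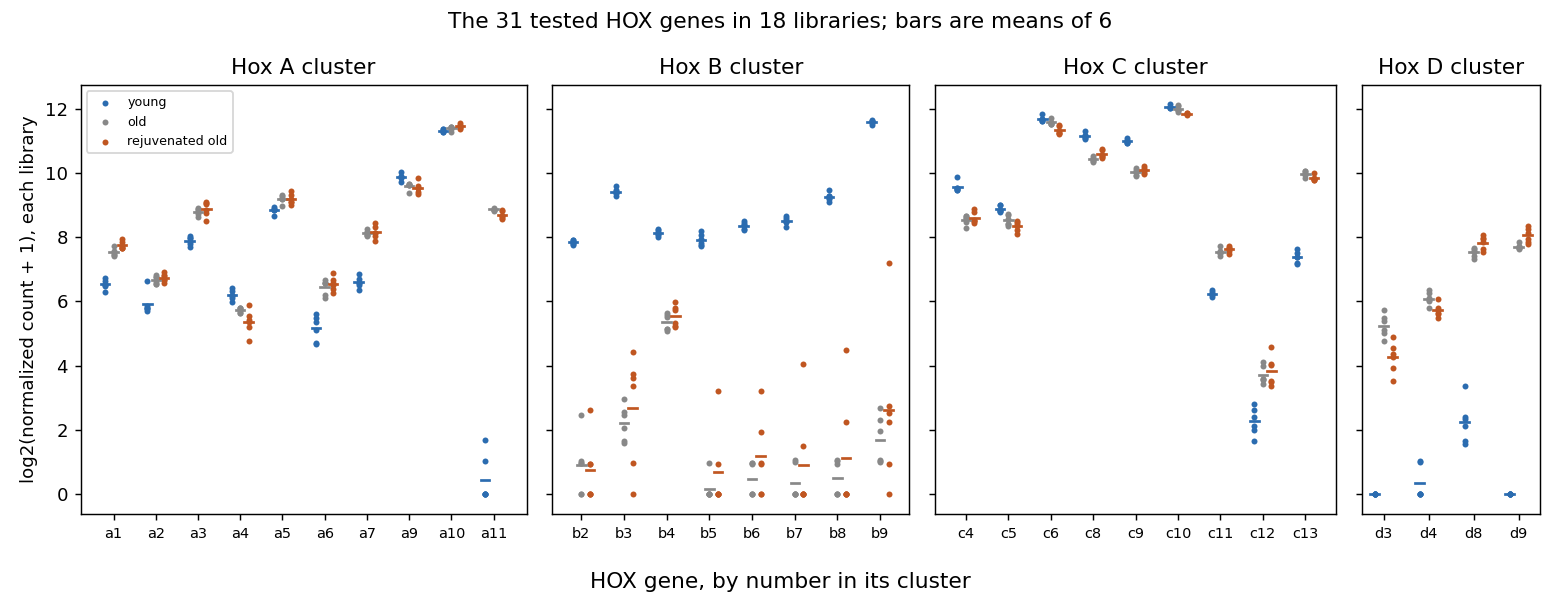
Each point is the log2(normalized count + 1) of 1 HOX gene in 1 library, with bars at the means of 6, for the 31 tested genes in 4 panels by cluster. All 8 B genes are high in young MSCs and lower in every rejuvenated old library, with replicate 1 above the others for Hoxb5 to Hoxb9, and the D genes are at or near 0 in young and higher in rejuvenated old MSCs. Old MSCs grown alone are drawn in grey.

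Transcription factors that pattern limbs and organs showed both directions. Of 40 tested, 23 were higher and 14 lower (57.5% and 35%, median 0.45), where 44.1% and 41.5% of all genes tested were. At least 2-fold higher were 17 and at least 2-fold lower 12, beside 17.9% and 13.1% of all genes tested. Pitx1, the factor that marks the hind limb, had at most 1.09 normalized counts in young and 1593 to 1893 (median 1641) in rejuvenated old MSCs, at least 531-fold higher. Eya1, a coactivator of muscle, ear and kidney development, had 0.996 to 4.26 (median 1.1) in young and 434 to 515 (median 455) in rejuvenated old MSCs (log2 fold change 7.49, SE 0.18, adjusted p = 6.93e-21). Lower were Foxf1, a factor of gut and lung mesenchyme, at 194 to 265 (median 235) against 0 to 12.4 (median 1.88) (log2 fold change -6.31, SE 0.45, adjusted p = 6.73e-12), and Tbx4, a T-box factor of hind limb and lung, at 99.4 to 128 (median 121) against 0 to 5.79 (median 0.472) (log2 fold change -6.09, SE 0.40, adjusted p = 1.71e-12). The groups did not overlap for these 4 genes, which were picked as the largest rises and falls of their list (36.5% of all genes tested did not overlap in the higher direction and 34% in the lower). Of the 18 tested imprinted growth genes, which are expressed from 1 parental copy, 10 were higher and 5 lower (55.6% and 27.8%, median 0.28). Next to Dlk1, the growth inhibitor Cdkn1c had 385 to 429 (median 389) in young and 0 to 8.24 (median 1.42) in rejuvenated old MSCs (log2 fold change -7.44, SE 0.42, adjusted p = 8.93e-14). Dio3, which inactivates thyroid hormone and lies in the same imprinted domain as Dlk1, went the other way, with 488 to 642 (median 539.6) in young and 2818 to 3591 (median 3257) in rejuvenated old MSCs (log2 fold change 2.57, SE 0.06, adjusted p = 1.58e-20). In old MSCs grown alone its median was 850.4 (log2 fold change 0.66 from young). Ndn, a growth-restraining gene of the Prader-Willi domain, had 247 to 319.7 (median 259.9) in young and 3087 to 3769 (median 3438) in rejuvenated old MSCs (log2 fold change 3.64, SE 0.06, adjusted p = 1.11e-23).

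The surface markers used to define MSCs were checked next. Of 19 tested, 8 were higher and 9 lower (42.1% and 47.4%, near the 44.1% and 41.5% of all genes tested), and their summed level overlapped, at 92262 to 107079 normalized counts in young and 92676 to 99121 in rejuvenated old MSCs. Single markers were far apart. Besides Eng, the adhesion molecule Alcam rose, with 17.9 to 42.6 (median 28.5) in young and 536 to 639 (median 550.3) in rejuvenated old MSCs (log2 fold change 4.24, SE 0.13, adjusted p = 6.42e-19). Thy1 (CD90) had 175 to 227 (median 192) in young and 0 to 21.6 (median 0.944) in rejuvenated old MSCs (log2 fold change -6.40, SE 0.55, adjusted p = 1.94e-10), or 0 to 0.951 without replicate 1 (log2 fold change -7.05). The nerve growth factor receptor Ngfr had 46.9 to 82.4 (median 68.9) and 0 to 3.78 (median 0.466) (log2 fold change -5.39, SE 0.35, adjusted p = 1.47e-12). Nt5e (CD73) and the PDGF receptor Pdgfra, chosen after their values were seen, were lower too, with log2 fold changes of -4.05 and -1.62. The flow cytometry panel of the study held CD44, Sca-1, CD34, CD45 and CD31. For surface protein, the study reports young and old MSCs as positive for CD44 and Sca-1 and negative for CD34, CD45 and CD31. It found no significant difference between the ages. RNA level and surface protein are unlike measures. At the level of RNA, Cd44 had 2021 to 2255 (median 2120.2) in young and 2039.5 to 2817 (median 2409) in rejuvenated old MSCs (log2 fold change 0.16, SE 0.06, adjusted p = 0.0125), groups that overlap, and its call was lost with libraries scaled to the same total (0.07) or by quantile normalization (0.12). Ly6a, which encodes Sca-1, had 19881 to 33910.0 (median 23277) and 11169 to 15050.5 (median 12518) (log2 fold change -0.94, SE 0.10, adjusted p = 8.84e-09). Cd34 RNA was abundant in young MSCs, at 6787 to 7191 (median 7008), and low in rejuvenated old MSCs, at 24.2 to 402 (median 39.1), or 24.2 to 41.9 without replicate 1 (log2 fold change -7.62). Ptprc, which encodes CD45, had 0 reads in every young library and 122 to 171 (median 154) in rejuvenated old MSCs. Pecam1 (CD31) was under the filter, at 11.7 to 22.9 (median 16.7) and 2.85 to 10.4 (median 4.79).

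Genes of the MSC lineages were mostly higher in rejuvenated old MSCs, where 44.1% of all genes tested were higher and 41.5% lower. By at least 2-fold, 17.9% of all genes tested were higher. Of the 24 tested osteoblast genes, 18 were higher and 4 lower, 15 of them at least 2-fold higher (median 2.20, and 2.12 with 4 members at the floor set to their bound). Dlx5, a homeodomain factor that turns on bone genes, was at least 248-fold higher, with at most 1.03 in young and 682 to 865 (median 767) in rejuvenated old MSCs. Its neighbour Dlx6 had 0 reads in every young library and 102 to 141 (median 120.0) in rejuvenated old MSCs. Spp1 (osteopontin), chosen after its values were seen, had 2596 to 2857 (median 2644) and 62098 to 90406 (median 73805) (log2 fold change 4.79, SE 0.07, adjusted p = 1.3e-24). Against the trend, Enpp1, which makes the mineralisation inhibitor pyrophosphate, fell, with 1377 to 1606 (median 1436) in young and 193 to 242 (median 216) in rejuvenated old MSCs (log2 fold change -2.74, SE 0.07, adjusted p = 3.94e-20). Of the 20 tested adipocyte genes, 15 were higher and 5 lower (median 1.72). Adipoq, which encodes the fat hormone adiponectin, was at least 241-fold higher, with 561 to 922 (median 767), and the fatty acid receptor Cd36 at least 42.6-fold higher, with 95.1 to 172 (median 131). Pparg, the main regulator of fat cell formation and chosen after its values were seen, had 295 to 391 (median 321) in young and 4268 to 5446 (median 4945) in rejuvenated old MSCs (log2 fold change 3.92, SE 0.06, adjusted p = 8.79e-25). Zfp521, which holds back fat cell formation, fell, with 4656 to 5057 (median 4893) in young and 297 to 444 (median 403) in rejuvenated old MSCs (log2 fold change -3.67, SE 0.07, adjusted p = 4.43e-23). Of the 15 tested cartilage genes, 10 were higher and 5 lower (median 1.42). Col2a1, the main collagen of cartilage, had 6.7 to 10.9 (median 7.33) in young and 2340.4 to 2963 (median 2643) in rejuvenated old MSCs (log2 fold change 8.23, SE 0.09, adjusted p = 5.68e-27), while Cilp, a protein of the cartilage intermediate layer, had 348 to 447 (median 420.4) and 0.943 to 6.76 (median 4.74) (log2 fold change -6.56, SE 0.32, adjusted p = 6.17e-15). Of 21 tested contractile genes, 17 were higher and 2 lower (median 0.71), led by the intermediate filament Des, at 17.9 to 38.1 (median 29.4) against 2618 to 3091 (median 2867) (log2 fold change 6.64, SE 0.11, adjusted p = 1.09e-23). Old MSCs grown alone had medians against young of 2.03 for osteoblast, 2.14 for adipocyte, 1.53 for cartilage and 0.75 for contractile genes.

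**Figure D4:**
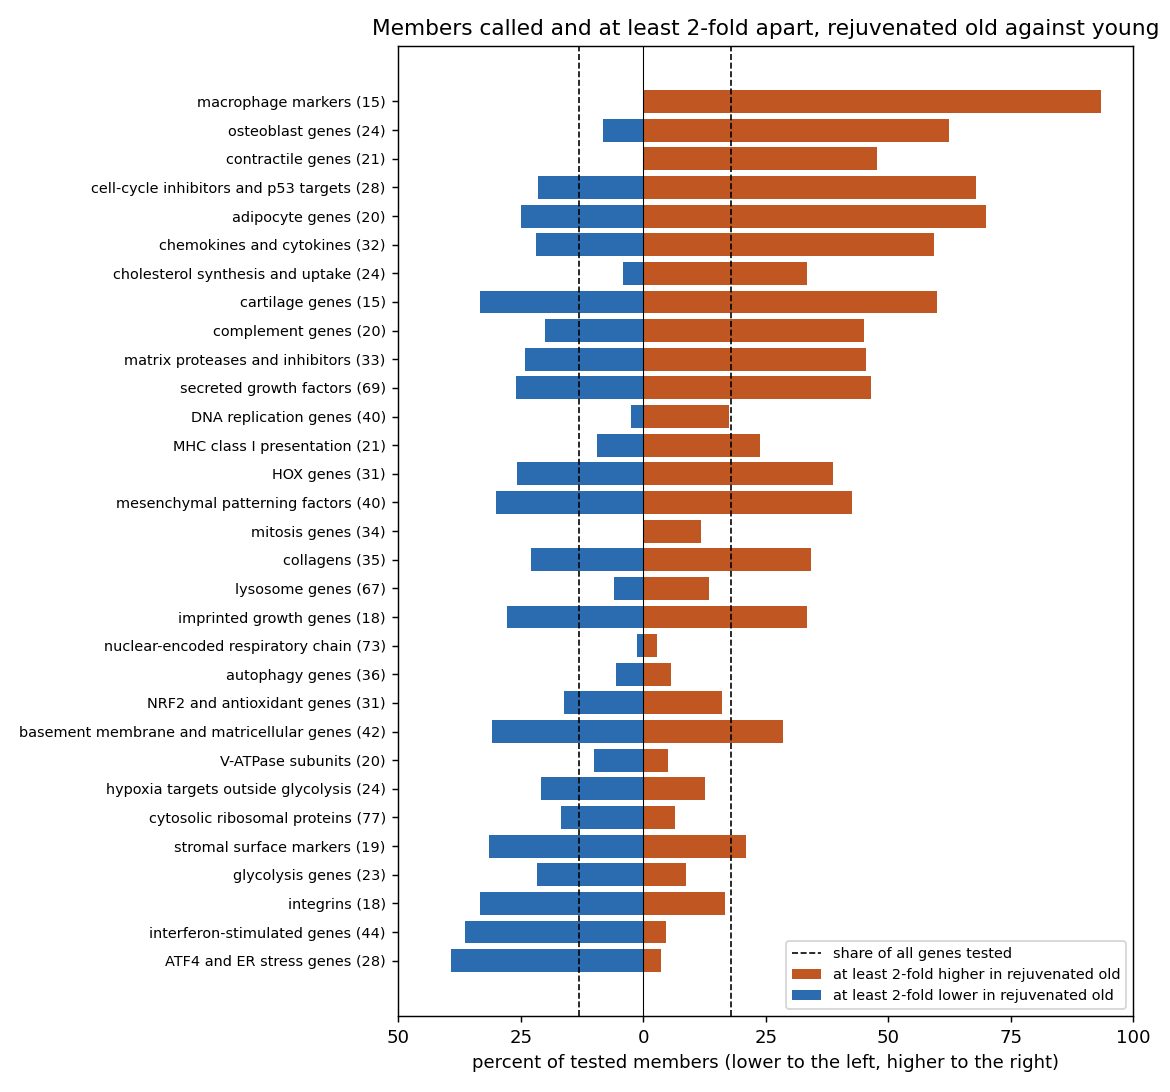
Bars give, for each list with at least 15 tested genes (number in brackets), the percent of members called and at least 2-fold higher (right) or lower (left) in rejuvenated old MSCs. The dashed lines are the shares over all genes tested, 17.9% higher and 13.1% lower; macrophage markers, adipocyte genes, cell-cycle inhibitors and p53 targets, and osteoblast genes reach farthest to the right, and ATF4 and ER stress genes and interferon-stimulated genes farthest to the left.

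Secreted factors carried several of the largest differences. Of 69 tested growth factors and their antagonists, 41 were higher and 22 lower, 32 and 18 of them by at least 2-fold (median 0.89). The shares higher and lower were 59.4% and 31.9%, against 44.1% and 41.5% of all genes tested. By at least 2-fold, 17.9% of all genes tested were higher and 13.1% lower. The Wnt antagonist Sfrp1 had 2.18 to 46.3 (median 4.16) normalized counts in young and 83770.0 to 95079 (median 87900.1) in rejuvenated old MSCs (log2 fold change 13.53, SE 0.38, adjusted p = 2.07e-19). Wif1, another Wnt antagonist, had 0 to 4.12 (median 0) and 1581 to 1945 (median 1789) (log2 fold change 10.22, SE 0.28, adjusted p = 7.67e-20), whereas the antagonist Dkk2 fell, with 6099 to 7237 (median 6707) in young and 21.9 to 94.7 (median 30.1) in rejuvenated old MSCs (log2 fold change -7.56, SE 0.31, adjusted p = 2.77e-16). Wnt antagonists thus moved in both directions, and of the 19 Wnt ligands and antagonists tested 12 were higher and 3 lower. All 6 IGF-binding proteins were called, 5 lower and 1 higher, the latter being Igfbp7 (log2 fold change 1.55, chosen after its value was seen). Bmp5, also chosen after its values were seen, had at most 1.03 in young and 784 to 1020.5 (median 976) in rejuvenated old MSCs, at least 297-fold higher. Of the 3 factors that the study assayed in medium, Cxcl12 was the farthest apart in RNA. It had 8970.3 to 9438 (median 9215) normalized counts in young and 209167 to 260803 (median 240606) in rejuvenated old MSCs (log2 fold change 4.69, SE 0.05, adjusted p = 2.98e-27). Vegfa, the main growth factor of vessels, had 6699 to 8394 (median 7607) and 12624 to 16495 (median 13725) (log2 fold change 0.89, SE 0.05, adjusted p = 2.46e-13), and in old MSCs grown alone its median was 8461 (log2 fold change 0.16 from young). Igf1 had 3069 to 3539.6 (median 3473) in young and 1973 to 2606 (median 2401) in rejuvenated old MSCs (log2 fold change -0.55, SE 0.06, adjusted p = 9.99e-09). The young and rejuvenated old libraries did not overlap for any of the 3 factors. Of all genes tested, 36.5% did not overlap in the higher direction and 34% in the lower. RNA level and protein released into medium are unlike measures. In medium, the study reports more VEGF and IGF1 from young than from old MSCs. SDF1, the product of Cxcl12, did not differ significantly between them. Against old MSCs paired with other old MSCs, it reports more IGF1 and SDF1 from rejuvenated old MSCs, with VEGF not significantly different.

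Among collagens the shares called were near those of all genes tested, of which 44.1% were higher and 41.5% lower, while single genes differed widely. Of 35 tested collagens, 16 were higher and 15 lower (45.7% and 42.9%, median 0.05). At least 2-fold higher were 12 and at least 2-fold lower 8, beside 17.9% and 13.1% of all genes tested. Col28a1 rose, with 2.99 to 10.3 (median 5.53) in young and 697 to 1075 (median 796) in rejuvenated old MSCs (log2 fold change 6.98, SE 0.19, adjusted p = 5.64e-20), and the minor fibrillar collagen Col11a1 fell, with 1252 to 1441 (median 1357) in young and 2.9 to 31.9 (median 5.16) in rejuvenated old MSCs (log2 fold change -7.40, SE 0.34, adjusted p = 2.34e-15). Of 42 basement membrane and matricellular genes, 19 were higher and 22 lower (45.2% and 52.4%, median -0.14). Among laminin alpha chains, Lama1 rose, with 33.5 to 44.3 (median 36.6) in young and 667 to 856 (median 821) in rejuvenated old MSCs (log2 fold change 4.38, SE 0.07, adjusted p = 1.12e-23), while Lama2 fell, with 541 to 622 (median 578) in young and 2.79 to 13.4 (median 4.73) in rejuvenated old MSCs (log2 fold change -6.49, SE 0.32, adjusted p = 6.26e-15). Of 33 matrix proteases and inhibitors, 21 were higher and 11 lower (median 0.69). The collagenase Mmp13 had 19.6 to 39.1 (median 29.8) in young and 11779 to 13595 (median 12009.8) in rejuvenated old MSCs (log2 fold change 8.66, SE 0.11, adjusted p = 5.32e-26). Of 18 integrins 7 were higher and 8 lower (38.9% and 44.4%). Itga9 rose, with 1.03 to 4.05 (median 2.58) in young and 255 to 337 (median 289.6) in rejuvenated old MSCs (log2 fold change 6.49, SE 0.18, adjusted p = 1.28e-19) and Itga3 fell, with 4681 to 5163 (median 5018) in young and 256 to 626 (median 278) in rejuvenated old MSCs (log2 fold change -3.96, SE 0.14, adjusted p = 1.66e-17).

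Markers of other cell types were read for their whole lists. Over all genes tested, 44.1% were higher and 41.5% lower, 17.9% and 13.1% by at least 2-fold. All 15 macrophage markers were higher, 14 of them by at least 2-fold (median 7.22, and 6.35 with 8 members at the floor set to their bound). Their summed level was 933 to 1045 normalized counts in young, 17053 to 20709.9 in rejuvenated old and 17059 to 21426 in old MSCs, and 8 of the 15 were at the floor in young MSCs. C1qa, a subunit of complement C1q made mainly by macrophages, had at most 1.03 in young and 1096 to 1395 (median 1286) in rejuvenated old MSCs. The defining macrophage genes Adgre1 (F4/80) and Itgam (CD11b), chosen after their values were seen, had 218 to 325 (median 251) and 316 to 441 (median 388) in rejuvenated old MSCs, and at most 0 and 2.23 in any young library. Cd14 and Cd68, also chosen afterwards, were above the floor in young MSCs, with medians of 246 and 434, against 347 and 1007 in rejuvenated old MSCs. In bulk samples, fewer cells of a type and less RNA per cell cannot be told apart. The part of macrophage RNA in the differences described elsewhere was not tested. None of the 8 lymphoid markers or the 7 neutrophil and mast cell markers passed the filter, and 7 and 4 of them were at the floor in rejuvenated old MSCs. Of 9 endothelial markers 4 were tested, 1 higher and 3 lower (median -1.27). The summed level of all 9 was 171 to 239 in young and 157 to 218 in rejuvenated old MSCs. Kdr, a VEGF receptor, was lower (-4.14) and Vwf higher (1.53). Esam was lower too, at 17.2 to 47.9 in young and 5.59 to 12.4 in rejuvenated old MSCs. Of the erythroid and megakaryocyte markers 2 were tested, 1 higher and 1 lower. Pf4, a chemokine of megakaryocytes that some macrophages also make, had 0 reads in young MSCs and 188 to 283 (median 225) in rejuvenated old MSCs. Itga2b went the other way, with 808 to 1038 in young and 235 to 286 in rejuvenated old MSCs. The summed skeletal muscle markers were 22.3 to 39.2 in young and 2707 to 3206 in rejuvenated old MSCs, almost all of it from Des, and 5 of the 7 were at the floor in both groups. The pericyte and smooth muscle markers summed to 659 to 806 in young and 4171 to 5154 in rejuvenated old MSCs, nearly all of the rise being Notch3, a Notch receptor, with 313 to 427 (median 378) and 4038 to 4954 (median 4459). Of the 5 tested in that list 3 were higher and 2 lower, and Cspg4, the proteoglycan NG2, had 134 to 175 (median 161) in young and 8.38 to 35.0 (median 16.7) in rejuvenated old MSCs (log2 fold change -3.18, SE 0.23, adjusted p = 6.73e-12). Epithelial markers, of which Krt19 (2.66) was tested, summed to 99.0 to 137 and 511 to 685. Schwann and neural markers summed to 2192 to 2377 and 1225 to 1408, and erythroid and megakaryocyte markers to 826 to 1044 and 448 to 571.

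Lists of immune genes were read next, beside the 44.1% of all genes tested that were higher and the 41.5% that were lower. Of 32 tested chemokines and cytokines, 25 were higher and 7 lower (median 1.55). Ccl6, a chemokine of myeloid cells, rose, with 0 to 5.33 (median 3.19) in young and 547 to 777 (median 654) in rejuvenated old MSCs (log2 fold change 7.78, SE 0.35, adjusted p = 1.6e-15), Cxcl14 was at least 69.4-fold higher, and the monocyte attractant Ccl8 fell, with 153 to 222 (median 190.3) in young and 0 to 7.73 (median 2.35) in rejuvenated old MSCs (log2 fold change -5.96, SE 0.36, adjusted p = 3.9e-13). Their levels lie beside the rise of the macrophage markers, whose part in them was not tested. Of 20 complement genes, 13 were higher and 5 lower, with the 3 C1q subunits, which are also among the macrophage markers, high and C3 and factor B (Cfb) low in rejuvenated old MSCs. Cfb had 1690.4 to 2717 (median 1805) in young and 319 to 491 (median 428) in rejuvenated old MSCs (log2 fold change -2.26, SE 0.13, adjusted p = 2.39e-13). All 44 interferon-stimulated genes were tested, of which 5 were higher, 20 lower and 19 not called (median -0.51). The share lower, 45.5%, was near that of all genes tested, while the share higher was 11.4%. At least 2-fold lower were 16 of the 44, beside 13.1% of all genes tested. At least 2-fold higher were 2, beside 17.9%. The antiviral Mx1 had 294 to 644 (median 417) in young and 2.83 to 70.0 (median 10.8) in rejuvenated old MSCs (log2 fold change -5.02, SE 0.67, adjusted p = 3.08e-07). Isg15, a ubiquitin-like modifier, went the other way, with 1021 to 2347 (median 1353) and 2021 to 8577 (median 4451), in groups that overlapped (log2 fold change 1.60, SE 0.40, adjusted p = 0.000816). In old MSCs grown alone the counts for this list were 2 higher and 25 lower, median -0.75. Of 21 genes of MHC class I presentation 10 were higher and 7 lower, among them the immunoproteasome subunit Psmb8, at 311 to 569 (median 382) against 1992 to 2832 (median 2479) (log2 fold change 2.61, SE 0.16, adjusted p = 2.5e-13), and H2-T23, at 3550.3 to 5438 (median 4071) against 1399.8 to 2126 (median 1737) (log2 fold change -1.28, SE 0.13, adjusted p = 2.39e-09). Genes of the H2-Q and H2-T groups share sequence, so reads may be split between them.

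Cell-cycle inhibitors and p53 targets were mostly higher in rejuvenated old MSCs, where 44.1% of all genes tested were higher and 41.5% lower. By at least 2-fold, 17.9% of all genes tested were higher and 13.1% lower. Of 28 tested, 21 were higher and 6 lower, with 19 at least 2-fold higher (median 1.34). The 19 genes listed as targets of p53, the factor that answers DNA damage, had 16 higher and 2 lower. The largest rises were in Polk, a DNA polymerase that copies past lesions, with 112 to 158 (median 134) in young and 2305 to 2715 (median 2409) in rejuvenated old MSCs (log2 fold change 4.18, SE 0.06, adjusted p = 3.87e-25), and in Phlda3, an inhibitor of Akt, with 883 to 1022 (median 989.8) in young and 10045 to 12417 (median 11167) in rejuvenated old MSCs (log2 fold change 3.52, SE 0.05, adjusted p = 3.61e-25). The genes Cdkn1a, Mdm2, Trp53 and Cdkn2a were chosen after their values were seen. Cdkn1a, which encodes the inhibitor p21, had 2202 to 2593 (median 2375) in young and 18356 to 20040.3 (median 19053) in rejuvenated old MSCs (log2 fold change 3.00, SE 0.04, adjusted p = 2.46e-26). Mdm2, which marks p53 for breakdown, had 1515 to 1614 (median 1591) and 10843 to 11889 (median 11333) (log2 fold change 2.84, SE 0.03, adjusted p = 2.17e-27). Trp53 itself had 1375 to 1765 (median 1505) and 3877 to 4043 (median 3952) (log2 fold change 1.38, SE 0.04, adjusted p = 2.47e-19). Cdkn2a, whose transcripts encode p16 and p19ARF and which rises with age in many tissues, was higher in young MSCs, at 17130.2 to 18797 (median 17936) against 5299 to 6485 (median 5841) (log2 fold change -1.61, SE 0.04, adjusted p = 4.44e-20). The membrane protein Perp, listed as a p53 target, also fell, by at least 49.2-fold. Cell division genes differed less. Of 34 mitosis genes, 25 were higher and 2 lower, 4 of them by 2-fold or more (median 0.56), and without rejuvenated old replicate 1, 5 were lower. The largest rise was in the kinetochore gene Nuf2, with 129 to 163 (median 146) in young and 433 to 485 (median 457) in rejuvenated old MSCs (log2 fold change 1.65, SE 0.09, adjusted p = 2.28e-14), while the proliferation marker Mki67, chosen after its values were seen, had 1065 to 1532 (median 1132) and 818 to 1273 (median 1065) (log2 fold change -0.17, SE 0.10, adjusted p = 0.102), and was called lower without rejuvenated old replicate 1, at -0.23. Of 40 DNA replication genes, 19 were higher and 12 lower (median 0.11), with Rrm2, a subunit of the enzyme that makes deoxynucleotides, the farthest apart at 199 to 324 (median 251) against 5143 to 6271 (median 5761) (log2 fold change 4.48, SE 0.08, adjusted p = 2.6e-23).

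Stress and translation genes were mostly lower. Of 28 targets of ATF4 and of ER stress, which cells raise when amino acids or protein folding fall short, 1 was higher and 24 lower after co-culture than in young MSCs (median -0.86). In old MSCs grown alone the counts were 2 higher and 26 lower, median -1.18. The cystine transporter Slc7a11 had 491 to 596 (median 529) in young and 44.4 to 134 (median 61.4) in rejuvenated old MSCs (log2 fold change -2.88, SE 0.19, adjusted p = 1.74e-12), and Aldh1l2, a mitochondrial enzyme of folate metabolism, had 3944 to 5681 (median 4519) and 620.0 to 1269.7 (median 736) (log2 fold change -2.50, SE 0.14, adjusted p = 1.5e-13). Sesn2, a stress-induced brake on mTORC1 that is also a p53 target, was the exception, at 597 to 748 (median 660.3) against 1862 to 2142 (median 2073) (log2 fold change 1.62, SE 0.05, adjusted p = 3.6e-19). Of 77 cytosolic ribosomal proteins, 15 were higher and 56 lower (median -0.49, and -0.73 in old MSCs grown alone). Many of these genes have near-identical copies, so single members such as Rpl29 (4.94) and Rpl21 (3.20), the largest rises, are uncertain. Of 11 mitochondrial DNA transcripts tested all 11 were higher (median 0.97). The 13 transcripts in the table took 2.38% to 2.70% of all normalized counts in young and 4.34% to 5.49% in rejuvenated old MSCs. Since nuclear copies of mitochondrial genes exist, reads of short ones such as ND3 (5.92) may be placed differently between counts. Of 73 nuclear genes of the respiratory chain 32 were higher and 33 lower, near the 44.1% and 41.5% of all genes tested (43.8% and 45.2%, median -0.05). Of 31 NRF2 targets and antioxidant genes, 17 were higher and 11 lower (median 0.12). Gpx3, which encodes the secreted glutathione peroxidase of plasma, rose, with 15.6 to 91.6 (median 21.0) in young and 64656 to 73909 (median 67846) in rejuvenated old MSCs (log2 fold change 11.35, SE 0.25, adjusted p = 1.99e-21), while Gsta4 fell, with 977 to 1178 (median 1067) in young and 36.2 to 70.0 (median 47.2) in rejuvenated old MSCs (log2 fold change -4.47, SE 0.13, adjusted p = 1.84e-19).

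In several lists the median lay close to 0 although single members differed. Of all genes tested 44.1% were higher and 41.5% lower. The shares were near these for glycolysis (43.5% and 47.8%), lysosome (46.3% and 40.3%) and autophagy genes (41.7% and 47.2%). Of 23 glycolysis genes, 10 were higher and 11 lower (median -0.05), while in old MSCs grown alone the counts were 6 higher and 16 lower, median -0.96. The glucose transporter Slc2a3 had 148 to 198 (median 174) in young and 3.78 to 12.1 (median 7.14) in rejuvenated old MSCs (log2 fold change -4.43, SE 0.20, adjusted p = 1.76e-15), and the neuronal enolase Eno2 had 5074 to 6268 (median 5519.9) and 399 to 566 (median 482) (log2 fold change -3.57, SE 0.08, adjusted p = 1.54e-21). Higher were Pfkfb3, which makes an activator of glycolysis, with 323 to 413 (median 385) in young and 808 to 888 (median 826) in rejuvenated old MSCs (log2 fold change 1.15, SE 0.05, adjusted p = 4.33e-15), and Gapdh (1.04), whose many near-identical copies make its value uncertain. Of 24 hypoxia targets outside glycolysis, 11 were higher and 9 lower (median 0.06), and in old MSCs grown alone 5 higher and 17 lower, median -0.92. Within this list Adm rose by 5.48 and the secreted hormone Stc2 fell, with 1049 to 1249 (median 1125) in young and 0 to 43.2 (median 4.25) in rejuvenated old MSCs (log2 fold change -7.66, SE 0.53, adjusted p = 5.01e-12). Replicate 1 set the highest value of Stc2 in rejuvenated old MSCs, and without it the range was 0 to 7.61 (log2 fold change -8.25). Of 67 lysosome genes, 31 were higher and 27 lower (median 0.04, against 43 higher and 17 lower, median 0.26 in old MSCs grown alone). The cathepsin Ctss, which macrophages express, rose, with 4.12 to 20.7 (median 7.4) in young and 616 to 715 (median 660.5) in rejuvenated old MSCs (log2 fold change 6.05, SE 0.23, adjusted p = 4.26e-17). Of 20 subunits of the V-ATPase, the proton pump of lysosomes, 10 were higher and 7 lower (median 0.09, and 0.34 in old MSCs grown alone), among them Atp6v0c (2.23) and Atp6v0e2 (-5.81). Of 36 autophagy genes, 15 were higher and 17 lower (median -0.05), led by the cargo receptor Optn (2.21). Of 24 genes of cholesterol synthesis and uptake, 14 were higher and 6 lower (median 0.41, and 0.66 in old MSCs grown alone), with Hsd17b7 (3.41) highest.

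Of 14 tested genes that the study names for these libraries or its assays, 6 were higher and 6 lower (42.9% each, median 0.01). These shares were near the 44.1% and 41.5% of all genes tested. Some of the 14 genes lay close to young MSCs. Lamp1, a protein of the lysosomal membrane, had 30823 to 33729 (median 32501) in young and 28523 to 33410.1 (median 32108) in rejuvenated old MSCs (log2 fold change -0.05, SE 0.04, adjusted p = 0.252). The 95% interval of its log2 fold change ran from -0.13 to 0.03. Gaa, the lysosomal alpha-glucosidase, had 11467 to 12598 (median 11732) and 10561 to 11481 (median 11069.7) (log2 fold change -0.10, SE 0.03, adjusted p = 0.00778). Col4a1, a chain of basement membrane collagen, had 18175 to 20302 (median 19641) and 15450.0 to 18223 (median 17951) (log2 fold change -0.14, SE 0.04, adjusted p = 0.00271), and its partner Col4a2 had 11342 to 12305 (median 11883) and 10059 to 11586 (median 11271) (log2 fold change -0.10, SE 0.03, adjusted p = 0.0126). In old MSCs grown alone the log2 fold changes from young were 0.39, 0.31, 0.67 and 0.69 for these 4 genes. The V-ATPase subunit Atp6v0a2 (0.22, adjusted p = 0.0105) and the integrins Itga5 (0.09, adjusted p = 0.0208) and Itgb3 (0.08, adjusted p = 0.227) were also close. For all 7 genes the groups overlapped, and the study had chosen them on these samples, so their closeness is no independent evidence. The call of Atp6v0a2 was lost with libraries scaled to the same total (0.13), and that of Itga5 under this scaling (0.00), the same 75th percentile (0.06) or quantile normalization (0.02), while Lamp1 was called under the same total (-0.14) and quantile normalization (-0.18). The call of Itga5 was also lost without rejuvenated old replicate 1 (0.08), rejuvenated old replicate 3 (0.07), young replicate 2 (0.08) or young replicate 3 (0.07).

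The differences also followed the chromosomes. The median log2 fold change over all 19 autosomes was 0.03, and chromosome medians are given relative to it. Genes of chromosome 16 had a median of 0.73, with 361 of 446 genes called higher, and those of chromosome 1 had 0.66, with 599 of 800 called higher. Chromosome 12 followed at 0.42 and chromosome 13 at 0.27. Genes of chromosome 7 had a median of -0.59, with 713 of 1032 called lower. The shares called higher were 80.9% on chromosome 16 and 74.9% on chromosome 1, beside 44.1% of all genes tested. On chromosome 7 the share called lower was 69.1%, beside 41.5% of all genes tested. The medians of the 6 rejuvenated old libraries spread little, from 0.70 to 0.77 for chromosome 16 and from -0.62 to -0.55 for chromosome 7. On the other 14 autosomes the medians ran from -0.25 on chromosome 15 to 0.17 on chromosome 10. Old MSCs grown alone differed from young by 0.72 on chromosome 16, 0.66 on chromosome 1, 0.43 on chromosome 12 and -0.64 on chromosome 7. The shifts ran along whole chromosomes or long stretches of them. In windows of 20 Mb that held at least 20 tested genes, the medians were 0.63 to 1.05 on chromosome 16, 0.37 to 0.63 on chromosome 12, -1.02 to -0.26 on chromosome 7 and 0.07 to 0.88 on chromosome 1. On chromosome 10 the last windows, from 100 Mb on, had 0.79 and 0.61, while the 5 windows before them ran from -0.08 to 0.20. On chromosome 9 the first windows, up to 40 Mb, had 0.30 and 0.34 and those after them were all below 0, down to -0.44. On chromosome 6 the first 20 Mb had 0.55. Of all 138 windows, 91 lay within 0.3 of 0. Chromosome X had a median of -0.20. The cause of these shifts was not tested. Without chromosomes 1, 7, 12 and 16, 9783 of the remaining genes were called, and 3370 of them were at least 2-fold apart. The chromosomes left out held 800, 1032, 496 and 446 of the genes tested. These counts are thus over fewer genes and cannot be set against those over all genes tested.

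**Figure D5:**
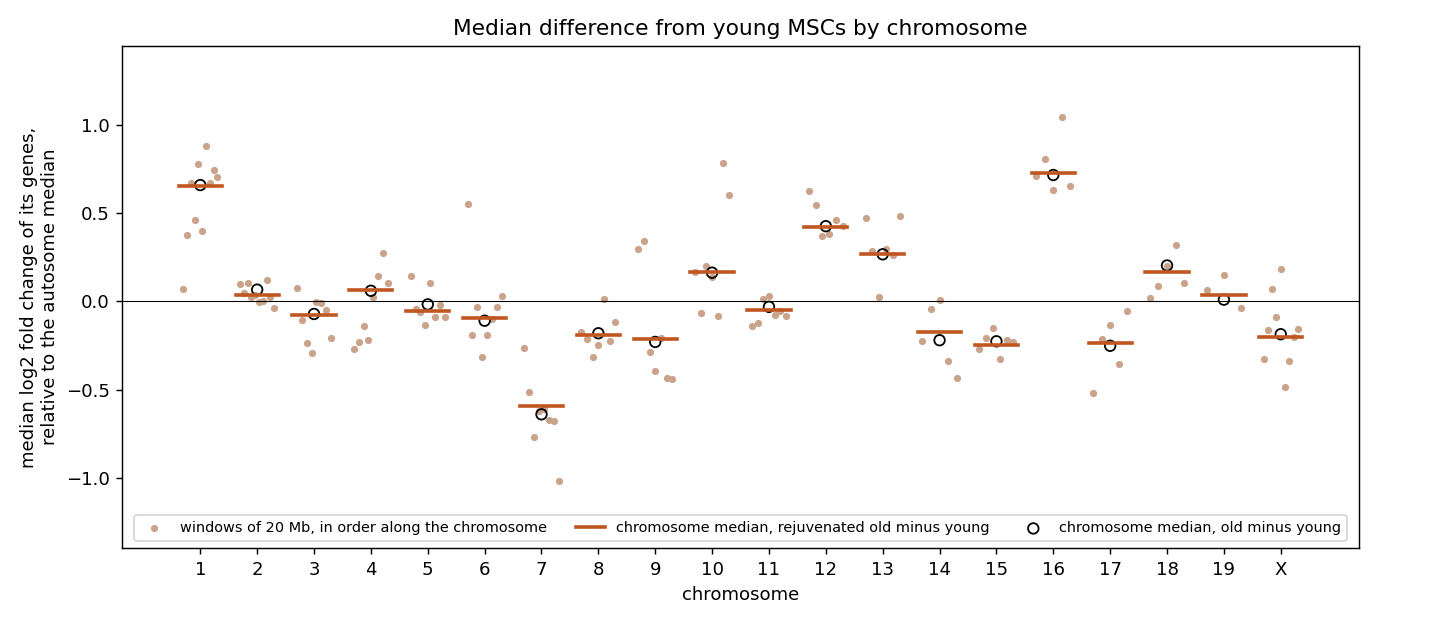
Thick lines give the median log2 fold change of the tested genes of each chromosome, rejuvenated old minus young, relative to the median over all autosomes; small points are the same medians of 20 Mb windows in order along the chromosome, and open circles the medians for old minus young. Chromosomes 1, 12, 13 and 16 lie above 0 and chromosome 7 below, and the circles lie near the lines.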

How the data were processed

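RNA sequencing of 18 libraries (6 per group) was analysed from the table of normalized counts that the authors deposited. Per the labels and the study's methods, the authors aligned reads to mm10 with HISAT2, then used StringTie, featureCounts and DESeq2 on Galaxy, with versions, annotation and strand setting not given in the sources used here. The deposited unit is a signal, reads per gene divided by 1 size factor per library, which corrects depth but not gene length. Whole reads were recovered for 100% of values (tolerance 0.001 reads), at 22936251 to 29155223 reads per library compared.

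Genes with a mean of at least 10 over the 18 libraries were tested on log2(normalized count + 1) with limma 3.58.1 in R 4.3.3, with a prior variance that followed the mean, 1 mean per group of 6 and the spread shared by all 18 libraries. A pseudocount of 1 understates the change of low genes. P-values are two-sided and were adjusted over all genes tested. The steps were tested on simulated data in which few genes changed, in equal numbers up and down. Most genes are called in the real data, so that test does not cover their scaling. Of the 27179 rows, 958 carried no gene name and 26 a name turned into a date, so these genes are not named. Positions and promoters came from RefSeq on GRCm38.p6, the assembly of mm10, and lists of genes were described by counts, with no set test. The members and lists were chosen with earlier results of these data known. Genes were named by rule: the 12 largest rises and falls among genes with a mean of at least 50 in the lower group and no overlap, the 8 highest genes on each side that were at the floor in the other group, up to 2 rises and 2 falls per list, the genes the study names and a check of sex. Not every gene the rule picked is printed, and others are said to be chosen after their values were seen.

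Alternatives were edgeR 4.0.16 and DESeq2 1.42.0 on the recovered reads, other scalings, pseudocounts, filters and thresholds, the 12 libraries alone, a replicate block, no chromosomes 1, 7, 12 and 16, and each library left out. Replicates of a group differed by more than sampling noise, so none was counted as a duplicate. The planned comparison of promoter features between genes higher and lower was not made, because a promoter was found for only 76.3% of tested genes.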

Additional observations from a re-analysis of the deposited data

Results flagged for a closer look

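Within groups of 6, a library was singled out where its gap to the nearest other library exceeded, as a share of the whole range, Dixon's 95% critical value. Chance alone does this in about 1 in 20 groups. Among 271 groups over 152 named genes this held 50 times, and 22 of these were rejuvenated old replicate 1, the library described above as standing apart. All values that follow are normalized counts. In rejuvenated old replicate 1 the value was far from the rest for Igfbp6 at 319, Dlk1 at 298, Cd34 at 402, Sema3a at 514, Il16 at 108, Ndrg1 at 483, Eno1b at 192, Hoxb9 at 146, Hoxb8 at 21.6, Hoxb7 at 15.4, Hoxb5 at 8.24, Hoxb6 at 8.24, Hoxb2 at 5.15, Foxf1 at 12.4, Cdkn1c at 8.24, Thy1 at 21.6, Dkk2 at 94.7, Col11a1 at 31.9, Itga3 at 626, Mx1 at 70.0, Stc2 at 43.2 and Atp6v0e2 at 29.9. Young replicate 6 lay apart with Hoxd8 at 9.27, Sfrp1 at 46.3, Wif1 at 4.12, Cd14 at 192, Mki67 at 1532 and Gpx3 at 91.6. For young replicate 1 the values lying apart were Sema3a at 11373, Slc30a3 at 202, Hoxc10 at 4479, Col2a1 at 10.9 and Trp53 at 1765. In rejuvenated old replicate 4 the value was far from the rest for Eng at 8158, Tbx4 at 5.79, Kdr at 9.66 and Ccl8 at 7.73. Rejuvenated old replicate 5 lay apart with Pitx1 at 1893, Col4a1 at 15450.0, Col4a2 at 10059 and Atp6v0a2 at 853. For rejuvenated old replicate 6 the values lying apart were Eif2s3y at 2355, Krt19 at 507 and Polk at 2715. In young replicate 5 the value was far from the rest for Eya1 at 4.26 and Mdm2 at 1515. Rejuvenated old replicate 2 lay apart with Ngfr at 3.78. For young replicate 2 the value lying apart was Pdgfra at 13667. In young replicate 3 the value was far from the rest for Pparg at 391. Young replicate 4 lay apart with Cfb at 2717. In rejuvenated old replicate 1 each of these values was the highest of its group, towards the young level, and in young replicate 6 Sfrp1, Gpx3, Wif1 and Hoxd8 were the highest of theirs, towards the level of rejuvenated old MSCs. What sets these libraries apart was not tested.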

How the results depend on the processing

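No called gene named here changed sign under any alternative run, while Itgb3, which was not called, went from 0.08 to -0.01 with libraries scaled to the same total. The balance of calls did turn. With each library scaled to the same total 5725 genes were higher and 6606 lower, and by quantile normalization 5748 and 6542, against 6328 and 5960 as reported, with a median of all genes of -0.06 in both in place of 0.03. The number of genes called, 12288 as reported, was 12298 by edgeR and 12260 by DESeq2 on the recovered reads, 10617 with a mean of at least 50, 14175 without a filter and 11498 at an adjusted p under 0.01. With each library left out in turn it was 12117 to 12288, with 6243 to 6334 higher and 5853 to 5954 lower, the 2-fold count was 4434 to 4481 (2563 to 2586 higher and 1868 to 1895 lower), and the share of squared distance between the groups was 93.9% to 94.6%. Raising the limit from 2-fold to 4-fold lowered the 2-fold count from 4444 to 2164, from 2565 to 1300 higher and from 1879 to 864 lower, as a stricter limit must.

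No paired reading of the replicate numbers was supported by the labels. Same-numbered young and rejuvenated old libraries had correlations of deviations from their group means of -0.04 to 0.05, 0 of 6 pairs passed 0.1 and none correlated best with its own number. A fit with the replicate block called 12210 genes. Of the named genes, Itga5, Atp6v0a2, Cd44 and Hoxa10 lost their call, and Lamp1 (-0.14) and Mki67 (-0.26) gained one, when libraries were scaled to the same total. The cause was not tested. Counts of list members moved by more than 1.5 times in 14 cases, most of them where leaving out chromosomes 1, 7, 12 and 16 left fewer genes. Depth limits what is called absent, since a gene at the floor can still have up to 3 reads a library.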
